A study of Mus musculus with 4 samples.

Results

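The genes described here are 10 transcription factors that meet in lipid metabolism, the stress response and the formation of fat cells: the peroxisome proliferator-activated receptors *Pparg*, *Ppard* and *Ppara*, their partner *Rxra*, the NR4A receptors *Nr4a1*, *Nr4a2* and *Nr4a3*, and the CCAAT/enhancer-binding proteins *Cebpa*, *Cebpb* and *Cebpd*. They are 10 of the 56748 gene IDs in the deposited count files. The group was put together because *Pparg* and *Nr4a2* had changed counts in the comparison of knockdown and scrambled libraries, so the values of the members in that comparison are given as a description and not as a test. C2C12, an established mouse myoblast line labelled as WT, was measured by nanopore direct RNA sequencing in 2 libraries with a scrambled shRNA and 2 libraries with a cocktail of 3 shRNAs against *Hnrnpl*. All cells grew as myoblasts in medium with fetal bovine serum, and both kinds of cell carried a plasmid with an eGFP reporter and were selected with puromycin. Within a group the libraries are passages of a single selected stable line, so the spread between them is that of passages, p-values measure that spread only, and a difference between the selected lines cannot be told apart from an effect of the knockdown. By the labels, scrambled 1 and knockdown 1 share a replicate number, as do scrambled 2 and knockdown 2. Libraries of the same number are treated here as a batch, which the labels do not name.

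The libraries held from 1229424 to 1676911 reads counted on genes, and 8670 genes had enough reads to be tested. Below, values of scrambled 1 and 2 are given first and those of knockdown 1 and 2 after the word "against". A count of 0 allows up to 3 reads, which is between 1.79 and 2.44 CPM in these libraries, and such limits cover counting error only. *Hnrnpl* itself had 358 and 656 reads against 242 and 258, so it was lower in both knockdown libraries. Between 16.0% and 16.5% of all reads were set aside because they overlapped more than 1 gene.

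PPAR proteins are nuclear receptors that bind fatty acids and their derivatives and act on DNA as partners of RXR. PPARγ drives the formation of fat cells, PPARδ and PPARα favour fatty acid oxidation, and skeletal muscle is known for its PPARδ. NR4A receptors are made within minutes of a stimulus as immediate early genes and act without a known natural ligand, and C/EBP proteins are leucine zipper factors, of which C/EBPβ and C/EBPδ come before PPARγ and C/EBPα when preadipocytes differentiate. HnRNP L, whose RNA was targeted in this study, binds RNA at CA repeats and CA-rich stretches.

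Because hnRNP L binds such repeats, the members were searched for runs of at least 6 CA dinucleotides in the sense direction. Runs were present somewhere in the gene for 5 of the 10 members, with 9 runs in *Pparg*, 9 in *Ppara*, 7 in *Ppard*, 3 in *Nr4a2* and 3 in *Nr4a3*. *Rxra*, *Nr4a1*, *Cebpa*, *Cebpb* and *Cebpd* had no run. Such a run was found in 61.7% of the 8662 tested genes that could be searched, so its presence in a gene is common. All runs of *Pparg*, the longest with 23 dinucleotides, lay in introns. An annotated transcript held a run in 15.8% of the searched genes and in 2 members, *Nr4a2* and *Ppard*. In *Nr4a2*, a run of 20 dinucleotides lay in the 3′ UTR of 30 of its 33 annotated transcripts, at chr2:56997743-56997782 on the reverse strand of GRCm39, and runs of 16 and 24 lay in the 5′ UTR of 1 transcript. A run of at least 20 in a transcript was found in 3.39% of the searched genes. In *Ppard*, the longest run in a transcript had 12 dinucleotides, at chr17:28512362-28512385 on the forward strand, in an exon of 1 of 10 transcripts that has no coding sequence. The start of the *Nr4a2* run (chr2:56997761-56997790) and the whole *Ppard* run (chr17:28512359-28512388) are shown from 5′ to 3′ on the strand of the gene, with the CA run in capitals.
Nr4a2, 3′ UTR: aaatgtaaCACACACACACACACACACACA
Ppard, exon of a transcript without coding sequence: agaCACACACACACACACACACACACAtgc

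The RefSeq promoter table (GRCm38.p6, 250 bases before to 50 bases after each start) had an entry for 9 of the 10 members, with 12 windows in all. *Cebpd* was not matched. Both strands were searched for TGACG, the core of the cAMP response element, which reads CGTCA on the other strand and is contained in the full element TGACGTCA. The core occurred 4 times in each of the windows of *Nr4a1*, *Nr4a2* and *Nr4a3*, 3 times in that of *Cebpb* and once each in those of *Ppard* and *Ppara*. Over all 32851 promoters of the table, 20.8% held at least 1, 1.03% at least 3 and 0.231% at least 4. The full element was in none of the member windows and in 1.79% of all promoters. For *Pparg*, both strands were read for the letters of a loose C/EBP site, TTNNGNAA. The window of the most downstream of its 3 start sites held them 2 times, and 40.7% of all promoters held the site. The NR4A monomer site AAAGGTCA, which contains the nuclear receptor core AGGTCA, occurred only in a window of *Rxra* among the members, and in 1.51% of all promoters. AGGTCA alone was in 2 windows of *Pparg* and 1 of *Rxra* and in 16.3% of all promoters, and the PPAR and RXR direct repeat AGGTCANAGGTCA was in no member window and in 0.0396% of all. These are matches of letters and not measured binding. The stretches below lie before start sites of that table. Those of *Pparg*, *Nr4a1* and *Nr4a2* lie within the span of the gene in the annotation, after other annotated starts, and those of *Nr4a3* and *Cebpb* directly before it. That of *Nr4a2* is part of a first exon in some annotated transcripts, and that of *Nr4a1* partly overlaps a long non-coding RNA on the opposite strand. The stretches are shown with the core or the loose site in capitals, and other matches of the windows fall outside them. They hold 1 of the 2 loose sites of *Pparg*, which fits TTNNGNAA when read on the opposite strand to the one shown. They also hold 2 of the 4 cores of *Nr4a1*, 2 of 4 of *Nr4a2*, 3 of 4 of *Nr4a3* and all 3 of *Cebpb*. They are the part from 250 to 145 bases before the start for *Pparg* (chr6:115398777-115398882, forward strand, GRCm39), from 250 to 71 for *Nr4a1* (chr15:101164477-101164656, forward), from 130 to 101 for *Nr4a2* (chr2:57014116-57014145, reverse), from 250 to 153 for *Nr4a3* (chr4:48045055-48045152, forward) and from 250 to 1 for *Cebpb* (chr2:167530585-167530834, forward).
Pparg: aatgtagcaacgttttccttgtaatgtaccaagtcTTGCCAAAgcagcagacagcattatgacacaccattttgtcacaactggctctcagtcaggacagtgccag
Nr4a1: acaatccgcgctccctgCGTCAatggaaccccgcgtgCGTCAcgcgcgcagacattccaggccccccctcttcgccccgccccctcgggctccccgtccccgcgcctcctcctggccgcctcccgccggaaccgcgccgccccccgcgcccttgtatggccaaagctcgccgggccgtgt
Nr4a2: gccgggcTGACGgggccgcTGACGcgcttg
Nr4a3: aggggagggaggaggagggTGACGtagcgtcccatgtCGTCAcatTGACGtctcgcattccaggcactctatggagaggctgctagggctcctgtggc
Cebpb: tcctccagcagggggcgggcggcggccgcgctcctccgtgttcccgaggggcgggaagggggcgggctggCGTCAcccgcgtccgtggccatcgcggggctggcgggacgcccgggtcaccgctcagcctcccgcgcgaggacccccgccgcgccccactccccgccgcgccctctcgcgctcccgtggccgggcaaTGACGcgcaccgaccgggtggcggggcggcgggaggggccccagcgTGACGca

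*Pparg* (ENSMUSG00000000440; chr6:115337675-115468268, forward strand), the receptor that drives fat cell formation, had 21 and 31 reads against 72 and 49. Scaled with the TMM factors of edgeR to the size of the mean library, the normalized counts were 22.0 and 26.1 against 71.8 and 57.3. Both knockdown libraries were above both scrambled libraries, with a gap of 31.2 normalized counts between the groups. The mean was 24.1 ± 2.90 against 64.6 ± 10.2 (SD, n = 2 each), 2.68 times as high in knockdown, and the fitted log2 fold change was 1.42 with a standard error of 0.26. All tested genes on chromosome 6 had a median log2 fold change of 0.28, and *Pparg* stood at 1.14 once the medians of the chromosomes were taken out. *Pparg* was not called without knockdown 1, where its log2 fold change was 1.24. In bulk RNA, a change in the number of cells that make an RNA and a change in the RNA per cell cannot be told apart.

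*Ppard* (ENSMUSG00000002250; chr17:28451674-28520448, forward strand), the receptor linked to fatty acid oxidation in muscle, had 31 and 40 reads against 37 and 34. The normalized counts were 32.5 and 33.7 against 36.9 and 39.8, so the groups did not overlap but lay only 3.21 apart. Its log2 fold change was 0.21 (standard error 0.27) on a chromosome with a median of 0.19, and it was 0.01 once that median was taken out. *Rxra* (ENSMUSG00000015846; chr2:27566452-27653330, forward strand), which encodes an RXR, the kind of partner that PPAR proteins need on DNA, had 8 and 13 reads against 9 and 12. Its normalized counts, 8.38 and 10.9 against 8.97 and 14.0, overlapped between the groups, and its log2 fold change of 0.21 was smaller than its standard error of 0.45 and ranged from -0.12 without knockdown 2 to 0.52 without knockdown 1, with 0.05 without scrambled 1 and 0.42 without scrambled 2. *Ppara* (ENSMUSG00000022383; chr15:85618656-85687067, forward strand), the receptor of liver fatty acid oxidation, had 1 and 2 reads against none, too few to be tested and within the limit of a count of 0. Of its 6587 exonic bases, 1803 overlap the opposite-strand gene *Cdpf1*, which had 22, 37, 30 and 16 reads. Reads on such a stretch may have been set aside, and their part in the count was not tested. Of the reads on *Pparg*, *Ppard*, *Ppara* and *Rxra* together, *Pparg* took 34.4% (95% exact binomial interval 22.7% to 47.7%) and 36.0% (26.0% to 47.1%) in scrambled and 61.0% (51.6% to 69.9%) and 51.6% (41.1% to 62.0%) in knockdown. Per kilobase of merged exons, *Ppard* was the highest of the 4 in both scrambled libraries and *Pparg* in both knockdown libraries.

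*Nr4a2* (ENSMUSG00000026826; chr2:56996842-57014331, reverse strand), also known as Nurr1 and needed for dopamine neurons, had 7 and 19 reads against 36 and 30. Its normalized counts were 7.33 and 16.0 against 35.9 and 35.1. The knockdown libraries lay close together, whereas scrambled 2 stood well above scrambled 1, and the groups were 19.1 apart. The means were 11.7 ± 6.12 (SD, n = 2) and 35.5 ± 0.569 (SD, n = 2), and the log2 fold change was 1.55 (standard error 0.37) on a chromosome with a median of -0.05. This value rested more on single libraries than that of *Pparg*: it was 1.14 without scrambled 1 and 2.25 without scrambled 2. *Nr4a2* was no longer called without scrambled 1 or without knockdown 1, where the log2 fold change was 1.53.

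The other NR4A genes were scarce. *Nr4a1* (ENSMUSG00000023034; chr15:101151980-101172681, forward strand), also known as Nur77, had 5 and 14 reads against 9 and 4, and its normalized counts of 5.24 and 11.8 against 8.97 and 4.68 overlapped. *Nr4a3* (ENSMUSG00000028341; chr4:48045153-48086447, forward strand), also known as NOR1, had 1 and 0 reads against 0 and 1. Neither could be tested. *Nr4a2* took 53.8% (25.1% to 80.8%) and 57.6% (39.2% to 74.5%) of the NR4A reads in scrambled and 80% (65.4% to 90.4%) and 85.7% (69.7% to 95.2%) in knockdown, and these exact intervals overlapped between the groups. *Nr4a2* had the most NR4A reads in every library.

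*Cebpb* (ENSMUSG00000056501; chr2:167530835-167532338, forward strand), an early factor of fat cell formation and of the acute phase response, had 28 and 26 reads against 55 and 39. The normalized counts were 29.3 and 21.9 against 54.8 and 45.6, and both knockdown libraries were higher by at least 16.3. The means were 25.6 ± 5.27 (SD, n = 2) and 50.2 ± 6.52 (SD, n = 2), 1.96 times as high in knockdown, and the log2 fold change was 0.99 (standard error 0.28). It was no longer called without scrambled 2, knockdown 1 or knockdown 2, where the log2 fold changes were 0.77, 0.85 and 1.11. Of its 1504 exonic bases, 312 overlap the opposite-strand gene *Peds1*, which had 49 and 54 reads against 41 and 46.

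*Cebpa* (ENSMUSG00000034957; chr7:34818718-34821353, forward strand), the factor that keeps fat cells and liver cells differentiated, went the other way. It had 12 and 14 reads against 3 and 2. The 95% Poisson intervals were 6.20 to 21.0 and 7.65 to 23.5 reads in scrambled and 0.619 to 8.77 and 0.242 to 7.22 reads in knockdown, so the intervals of the groups overlapped in part. The normalized counts were 12.6 and 11.8 against 2.99 and 2.34, and the knockdown mean was 21.9% of the scrambled mean. Its log2 fold change was -2.12 (standard error 0.57), the largest in size among the 7 tested members, and lay between -2.32 and -1.98 when single libraries were left out. Its mean normalized count of 7.42 was under the 10 that a call requires. *Cebpd* (ENSMUSG00000071637; chr16:15705150-15708895, forward strand), an early factor like *Cebpb*, had 8 and 14 reads against 16 and 9. Its normalized counts of 8.38 and 11.8 against 16.0 and 10.5 overlapped, and its log2 fold change of 0.39 (standard error 0.44) lay near the chromosome 16 median of 0.30. This value rested on single libraries: it was 0.04 without knockdown 1, 0.18 without scrambled 1, 0.63 without knockdown 2 and 0.66 without scrambled 2. Of its 3746 exonic bases, 563 overlap *Spidr* on the opposite strand, on which 4 reads in all were counted. What the overlapping genes took from *Cebpb* and *Cebpd* was not tested.

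**Figure D1:**
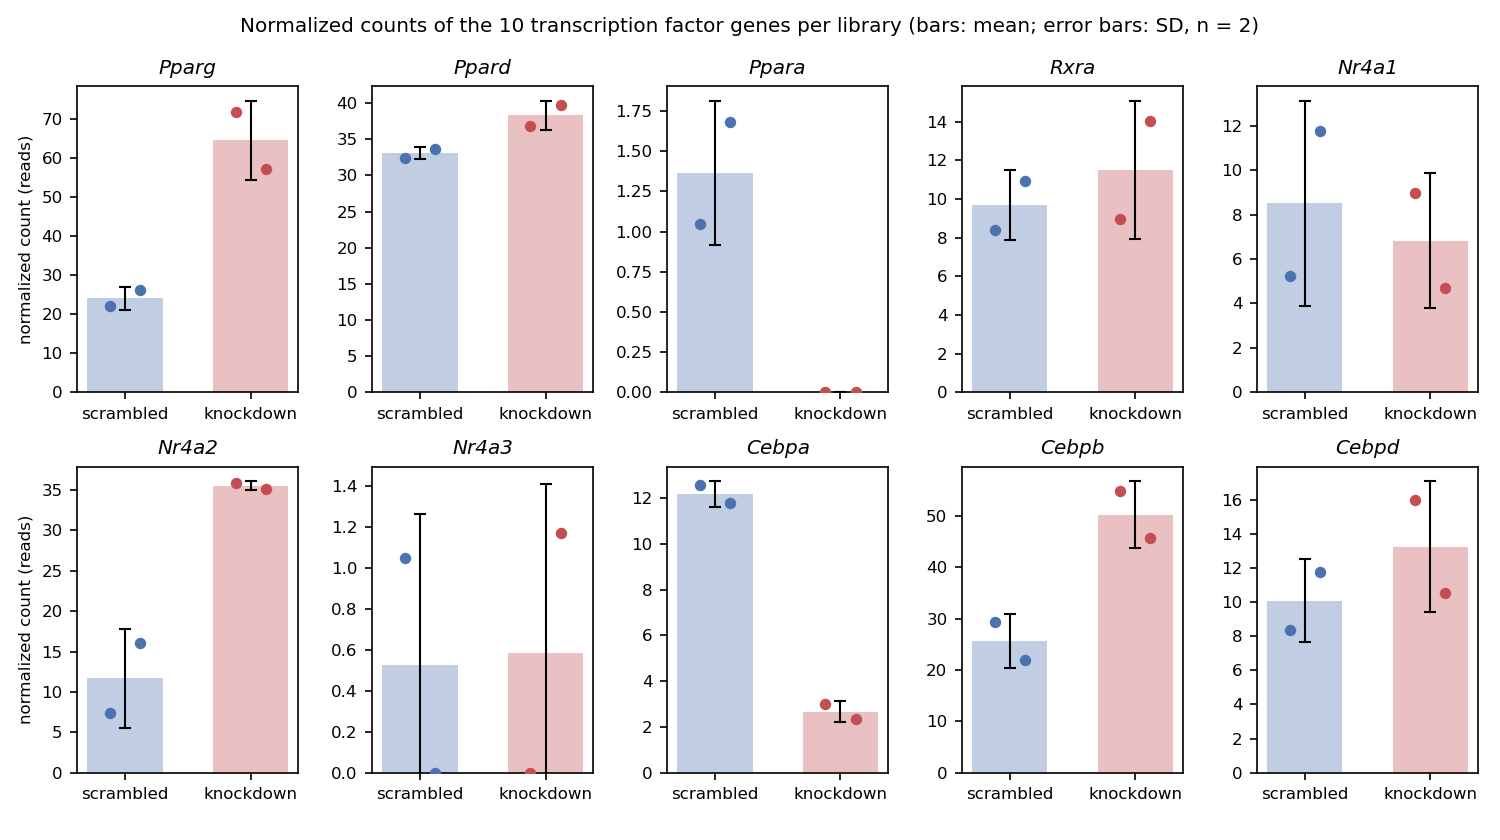
Normalized counts (reads, scaled by TMM to the mean library) of the 10 genes in the 2 scrambled and 2 knockdown libraries, each panel with its own axis from 0; points are libraries, bars the mean and error bars the SD. *Pparg*, *Nr4a2* and *Cebpb* lie higher in both knockdown libraries, *Cebpa* lower, and *Ppara* and *Nr4a3* have at most 2 reads in any library.

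The make-up of the C/EBP reads was also compared between the libraries. *Cebpb* took 58.3% (exact 95% interval 43.2% to 72.4%) and 48.1% (34.3% to 62.2%) of the reads on the 3 genes in scrambled and 74.3% (62.8% to 83.8%) and 78% (64.0% to 88.5%) in knockdown. *Cebpa* took 25% (13.6% to 39.6%) and 25.9% (15.0% to 39.7%) in scrambled and 4.05% (0.844% to 11.4%) and 4% (0.488% to 13.7%) in knockdown. Both knockdown shares of *Cebpa* were below both scrambled shares, and their intervals overlapped only between scrambled 1 and knockdown 2. The shares of *Cebpd* were 16.7% and 25.9% against 21.6% and 18% and overlapped between the groups. Since shares add up to the whole, a higher share of *Cebpb* goes with lower shares of the others.

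**Figure D2:**
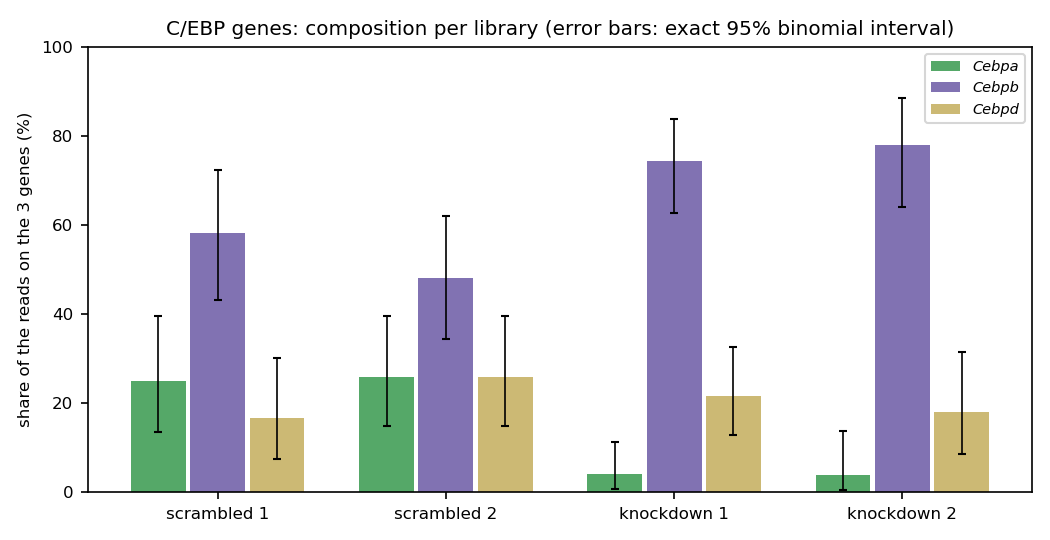
Share of the reads on *Cebpa*, *Cebpb* and *Cebpd* (percent of their summed reads, 48 to 74 per library) in each library, with exact 95% binomial intervals. *Cebpa* makes up 25% and 25.9% in the scrambled libraries and 4.05% and 4% in the knockdown libraries.

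A gene was called, with the thresholds of the study, when its adjusted p was below 0.05, its log2 fold change exceeded 0.5 in either direction and its normalized counts averaged more than 10. Of the 10 members, 7 had enough reads to be tested, 3 were called higher (*Pparg*, *Nr4a2* and *Cebpb*) and 0 were called lower. *Nr4a2* and *Cebpb* were called in none of the 4 DESeq2 configurations, and *Pparg* in those with a local fit and not in those with a parametric fit. Over all 8670 tested genes, 2.33% were called higher and 3.22% lower, and nothing is read from the share of members, since they were chosen on this comparison. Both knockdown libraries were above both scrambled libraries in 4 tested members and below them in 1, and this held for 26.4% and 26% of all tested genes, 52.4% in either direction. The median log2 fold change of all tested genes was -0.00059, near 0 as the scaling sets it. The medians of the autosomes ranged from -0.37 on chromosome 9 to 0.30 on chromosome 16, and the members on chromosomes 6, 16 and 17 lay on chromosomes with positive medians.

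**Figure D3:**
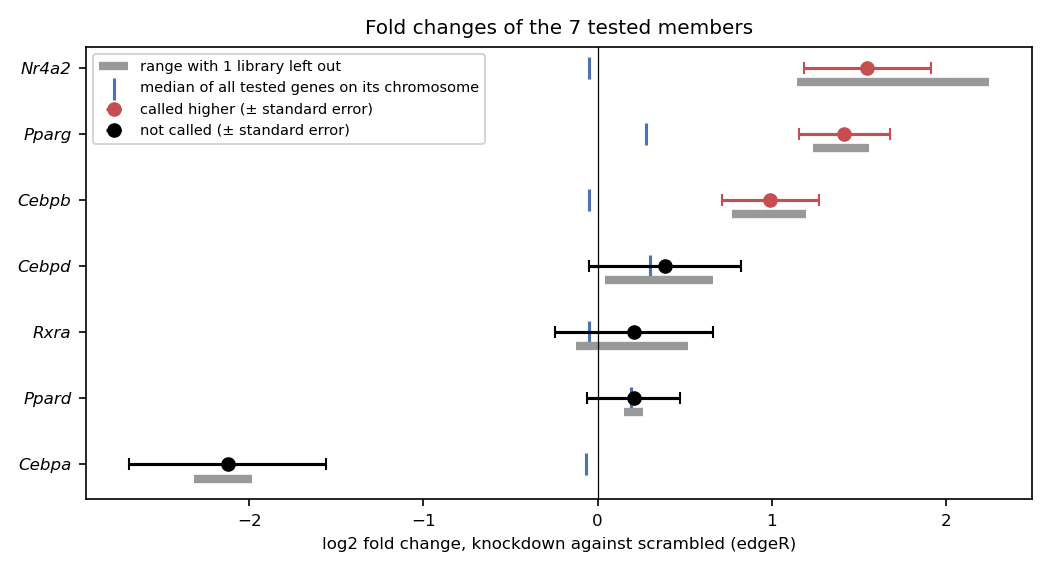
Log2 fold changes (knockdown against scrambled, edgeR) of the 7 tested members with their standard errors; grey bars span the values with 1 library left out and blue ticks mark the median of all tested genes on the same chromosome. *Nr4a2* (1.55), *Pparg* (1.42) and *Cebpb* (0.99) lie well above their chromosome medians, *Cebpd* and *Ppard* lie near theirs, and *Cebpa* lies at -2.12.

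Levels of different genes were compared per kilobase of merged exons. In scrambled libraries, *Cebpb* was highest with 17.0 ± 3.50 (SD, n = 2) normalized counts per kb, followed by *Cebpa* with 4.62 ± 0.211, *Ppard* with 4.40 ± 0.112, *Pparg* with 3.45 ± 0.416 and *Cebpd* with 2.69 ± 0.643. *Nr4a2* and *Rxra* followed at 1.42 ± 0.746 and 1.41 ± 0.264 per kb, *Nr4a1* at 0.781 ± 0.425, and *Ppara* and *Nr4a3* at 0.207 ± 0.0683 and 0.0875 ± 0.124. The libraries of *Cebpa* and *Ppard*, of *Nr4a2* and *Rxra*, of *Nr4a2* and *Nr4a1*, and of *Ppara* and *Nr4a3* overlapped on this scale, so the order within these pairs does not exceed their spread. In knockdown libraries, *Cebpb* was again highest with 33.4 ± 4.34 per kb, and *Pparg* was next with 9.26 ± 1.47, above *Ppard* with 5.10 ± 0.271 and *Nr4a2* with 4.32 ± 0.0694. *Cebpa*, second in scrambled, was seventh at 1.01 ± 0.175. This order rests on the length scaling, which may not suit direct RNA reads, since a read comes from a single RNA molecule whatever its length. Without the length scaling, 6 of the 10 ranks in scrambled moved: *Ppard* was at 1, *Cebpb* at 2, *Pparg* at 3, *Cebpa* at 4, *Nr4a2* at 5 and *Cebpd* at 6. In knockdown, *Pparg* then had a mean of 64.6 normalized counts, above *Cebpb* with 50.2.

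The genes around these factors were described by lists of 207 genes, the members not counted, of which 118 were tested. The lists were chosen with earlier results of these data known. Of the 118, 6 were called higher and 6 lower, 10.2% against 5.55% of all tested genes called in either direction, and their median log2 fold change was 0.01.

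Among the relatives of the members, *Rxrb*, a second RXR partner, had 40 and 57 reads against 27 and 23, and its value of -0.74 did not pass (adjusted p = 0.114 in edgeR). *Cebpg*, a C/EBP protein without an activation domain, had 29, 46, 43 and 25 reads in the same order of libraries and a log2 fold change of 0.06. *Cebpz*, grouped here by its symbol only, had 2, 4, 6 and 3 reads and *Ddit3*, the stress factor CHOP, had 0, 3, 1 and 4, and neither was tested. *Rxrg* and *Cebpe* had no reads. Other nuclear receptors, 23 genes of which most pair with RXR, gave 10 tested genes. An unadjusted p under 0.05 in edgeR was found for 1894 of all 8670 tested genes and for 3 of these 10. None of the 10 was called by edgeR or in any of the 4 DESeq2 configurations. Their values ranged from -0.99 for the thyroid hormone receptor *Thra* (15 and 22 reads against 10 and 6, adjusted p = 0.177 in edgeR) to 0.80 for the vitamin D receptor *Vdr* (10 and 7 against 15 and 11, adjusted p = 0.320). Coactivators and corepressors, the proteins through which these receptors act on transcription, gave 17 tested genes. None was called by edgeR or DESeq2, 1 had an unadjusted p under 0.05, and the log2 fold changes lay between -0.35 (*Tacc1*) and 0.54 (the coactivator *Ncoa6*) around a median of -0.02. *Ep300*, a histone acetyltransferase, had 96 and 96 reads against 89 and 80, and *Ncor1*, a corepressor, had 93 and 130 against 109 and 76.

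Genes that PPAR proteins are known to switch on, together with other genes of lipid handling, gave 30 tested genes with a median log2 fold change of 0.06, of which 2 were called higher and 2 lower. Without scrambled 2 or knockdown 1, 2 were called in all. *Angptl4*, a PPAR target that blocks lipoprotein lipase, rose from 88 and 100 reads to 152 and 110 (log2 fold change 0.68, standard error 0.17, adjusted p = 0.0252 in edgeR). *Hadha*, a subunit of the mitochondrial trifunctional protein of fatty acid oxidation, rose from 89 and 104 to 151 and 114 (0.66, standard error 0.17, adjusted p = 0.0268 in edgeR). Both were higher in each knockdown library than in each scrambled library. On their chromosomes, 17 and 5, the medians were 0.19 and 0.23, and once these were taken out the values were 0.48 and 0.42 and neither gene was called. *Angptl4* was also lost without scrambled 2 (0.60) or knockdown 1 (0.55), and *Hadha* without scrambled 1 (0.70), scrambled 2 (0.60) or knockdown 1 (0.56), and neither was called in any of the 4 DESeq2 configurations. The stearoyl-CoA desaturases, which make monounsaturated fatty acids, fell: *Scd1* had 351 and 481 reads against 205 and 136 (-1.08, standard error 0.16, adjusted p = 0.00036 in edgeR), and *Scd2* had 1210 and 1966 against 821 and 425 (-1.15, standard error 0.19, adjusted p = 0.00104 in edgeR). *Scd1* was called under all 16 alternatives tried, and *Scd2* in all but the 4 DESeq2 configurations. Other members of the list include *Plin2*, a lipid droplet protein (485 and 669 against 420 and 351 reads, -0.37), *Pdk4*, which slows glucose oxidation (37 and 69 against 75 and 61, 0.57), and *Fabp5*, a fatty acid carrier (108 and 110 against 106 and 84, -0.00), none of which passed the test. *Txnip* had the highest log2 fold change of the list, 1.93, from 9 and 1 reads against 19 and 15, and missed the threshold (adjusted p = 0.0520 in edgeR).

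Regulators of fat cell formation other than the members gave 16 tested genes, with 1 called higher and 1 lower. Without scrambled 1 or knockdown 1, 1 was called in all. *Id2*, an inhibitor of basic helix-loop-helix factors that promotes fat cell formation and holds back muscle differentiation, rose from 150 and 189 reads to 378 and 380 (log2 fold change 1.37, standard error 0.15, adjusted p = 1.85e-05 in edgeR). It was called under all 16 alternatives, with values between 1.25 and 1.49. *Stat5b*, which carries growth hormone signals, fell from 33 and 24 reads to 6 and 4 (-2.29, standard error 0.46, adjusted p = 0.00552 in edgeR). It was lost without scrambled 1 (-1.89) or knockdown 1 (-2.49) and in the parametric DESeq2 fits. *Srebf1*, a factor of fatty acid synthesis, had 40 and 54 reads against 49 and 40, and *Ebf1*, an early adipogenic factor, had 32 and 26 against 30 and 22, and neither passed.

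Immediate early genes, the class to which the NR4A genes belong, gave 33 tested genes, with 1 called higher, 3 lower and a median of -0.13. Without knockdown 1, 2 were called in all, and without knockdown 2, 1 was. *Jun* and *Junb*, which encode parts of AP-1, had 276 and 337 reads against 206 and 151 (-0.58, adjusted p = 0.0275 in edgeR) and 312 and 426 against 242 and 152 (-0.71, adjusted p = 0.0125 in edgeR). *Sgk1*, a kinase induced by serum and glucocorticoids, fell from 1305 and 1424 reads to 688 and 750 (-0.72, adjusted p = 0.0064 in edgeR). *Btg1*, an antiproliferative gene, rose from 256 and 330 reads to 408 and 326 (0.53, adjusted p = 0.0316 in edgeR). In all 4 genes the groups did not overlap once scaled for library size. With single libraries left out, *Sgk1* was lost without knockdown 1 (-0.55) and *Junb* without knockdown 2 (-0.51) and in the parametric DESeq2 fits. *Jun* (-0.70 to -0.48) and *Btg1* (0.48 to 0.57) were lost without each of the 4 libraries, in all 4 DESeq2 configurations and once chromosome medians were taken out (-0.51 and 0.29), and *Btg1* also with the replicate block (0.53). *Egr1*, a classical immediate early gene, had 67 and 40 reads against 83 and 32, and *Myc* had 145 and 151 against 136 and 119, and neither passed. *Atf3*, a stress-induced member of the class, had 14 and 14 reads against 5 and 3 (-1.58, adjusted p = 0.0744 in edgeR), the opposite direction to *Nr4a2*.

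Acute phase and inflammatory genes that C/EBP proteins are known to act on gave 13 tested genes, 2 of them called higher and none lower by edgeR, with a median of 0.18 and a lowest value of -0.37 (*Trib3*, 32 and 26 reads against 19 and 20, adjusted p = 0.564). *Cxcl5*, a chemokine that attracts neutrophils, rose from 48 and 27 reads to 106 and 116 (1.76, standard error 0.26, adjusted p = 0.00047 in edgeR). It was called with each library left out, at values between 1.25 without scrambled 2 and 2.39 without scrambled 1, but not in the DESeq2 configurations with a local fit. *Ptgs2*, the inducible cyclooxygenase, rose from 145 and 141 reads to 196 and 249 (0.85, standard error 0.19, adjusted p = 0.0112 in edgeR), and was lost without scrambled 2 (0.67), without knockdown 2 (0.54), in the parametric DESeq2 fits and once chromosome medians were taken out (0.65). *Ccl2*, another chemokine, had 435 and 431 reads against 381 and 373, and the metallothionein *Mt1* had 1271 and 1445 against 1476 and 1209, and neither passed. The number of called genes in the list was 4 without scrambled 1 and 1 without scrambled 2 or knockdown 2.

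**Figure D4:**
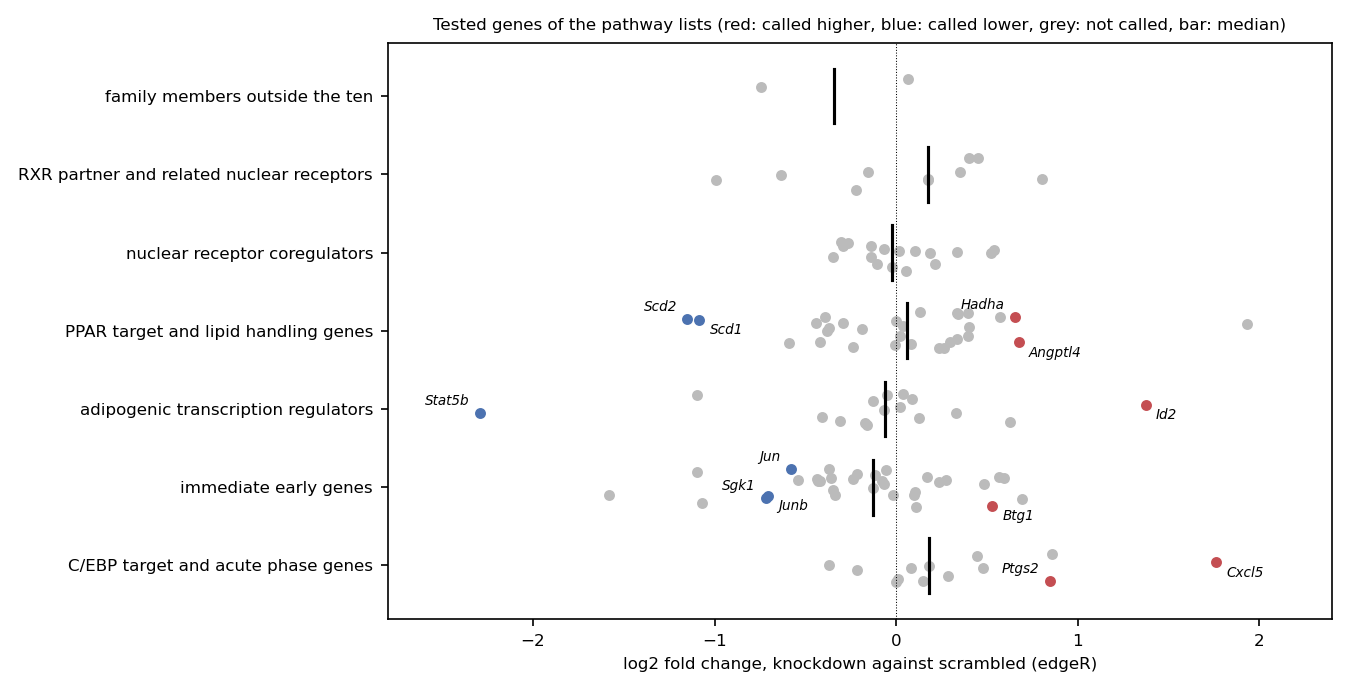
Log2 fold changes (knockdown against scrambled, edgeR) of the tested genes of the 7 lists around the members, a point per gene with random vertical spread; red and blue points were called higher and lower, and black bars are medians. The medians lie between -0.34 (2 genes) and 0.18, and *Id2*, *Cxcl5*, *Scd1*, *Scd2* and *Stat5b* lie farthest out among the called genes.

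Markers of cell types were read beside these values. Of 12 myoblast markers, 9 had reads and 6 were tested. *Cdh15*, the cadherin of muscle precursors, had 113 and 152 reads against 25 and 14, and it, *Chrna1* (255 and 409 against 120 and 78), *Ncam1* (66 and 72 against 20 and 23) and the intermediate filament gene *Des* (373 and 571 against 309 and 242) were called lower in edgeR. *Myf5*, a myogenic factor, had 157 and 190 reads against 158 and 113 and did not pass. *Cdh2*, which encodes N-cadherin, had 142 and 181 reads against 167 and 142 and did not pass either, with a log2 fold change of 0.14, the only positive value among the 6. Both knockdown libraries were above both scrambled libraries for *Cdh2* after normalization. *Myod1*, a defining factor of this line, had 1 read in all 4 libraries, and *Pax7*, *Myog* and *Mymk* had none. Reads that overlapped more than 1 gene or mapped with low quality (22.7% to 23.8% of all reads) were not counted. Their part in such low counts was not tested, so low counts of markers are not read as absence of the RNA. The summed level of the myoblast markers was 829 and 950 CPM in scrambled and 569 and 513 CPM in knockdown. Adipocyte markers were at or near 0 in all libraries. Of 10 such markers, 5 had reads, with 4 and 7 reads in all in the scrambled libraries and 2 and 2 in the knockdown libraries (1.42 to 4.20 CPM). *Plin1*, *Cidec*, *Lep*, *Retn* and *Cd36* had no reads, and *Adipoq* and *Fabp4*, direct targets of PPARγ in fat cells, had 1 and 2 reads over the 4 libraries, so genes of mature fat cells were at or near the limit of detection in both groups. Fibroblast markers summed to 893 and 645 CPM in scrambled and 576 and 381 CPM in knockdown, from 5 of 10 genes with reads, almost all on *Col3a1* (775 and 718 against 648 and 347, not called) and *Col1a2* (409 and 345 against 154 and 105, called lower in edgeR). *Col1a1*, *Lum*, *Thy1*, *Dpt* and *Tcf21* were at 0, with the same limit of uncounted reads. Macrophage markers had 4 and 3 reads in scrambled and 55 and 40 in knockdown, of which 0 and 0 against 50 and 30 were on *Mgl2*, called higher in edgeR, and the defining genes *Ptprc*, *Adgre1*, *Itgam*, *C1qa*, *C1qb* and *Fcgr1* were at 0. Endothelial markers had at most 1 read in any library. The part of the markers that moved in the values of *Pparg*, *Nr4a2*, *Cebpb* and *Cebpa* was not tested.

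Since chromosomes differed in their medians, the neighbours of the 2 genes that led to the group were read as well. Tested genes near *Pparg* included *Tamm41* (323 kb before it), which makes mitochondrial lipids, with 65 and 73 reads against 99 and 92 (log2 fold change 0.67, adjusted p = 0.0385 in edgeR), *Atg7* (500 kb before it), an autophagy gene, with 5 and 23 against 29 and 19 (0.99, adjusted p = 0.187 in edgeR), *Mkrn2* (111 kb after it) with 4 and 13 against 7 and 16 (0.65), and *Rpl32* (314 kb after it), a ribosomal protein gene with pseudogene copies whose count is uncertain, with 38 and 32 against 15 and 16 (-0.97, which did not pass). The values of the first 3 were positive and that of *Rpl32* was negative. Over 19 tested genes within 2 Mb, 3 were called higher and 0 lower, with a median of 0.42 and a range from -0.97 (*Rpl32*) to 1.13 (*Arpc4*), so *Pparg* at 1.42 lay above each of them. On the whole of chromosome 6, 26 of 404 tested genes were called higher and 5 lower. The part of this local shift in the *Pparg* value was not tested beyond removing the chromosome median. Around *Nr4a2* only 3 tested genes lay within 2 Mb, none was called and their median was -0.16. *Gpd2* (113 kb after it) had 137 and 177 reads against 137 and 107 (-0.16), *Acvr1* (1264 kb after it) 58 and 90 against 62 and 49 (-0.20), the pseudogene *Idi1-ps1* (3410 kb before it by coordinate) 13 and 18 against 17 and 12 (0.11) and *Arl6ip6* (3886 kb before it) 132 and 136 against 103 and 94 (-0.24).

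**Figure D5:**
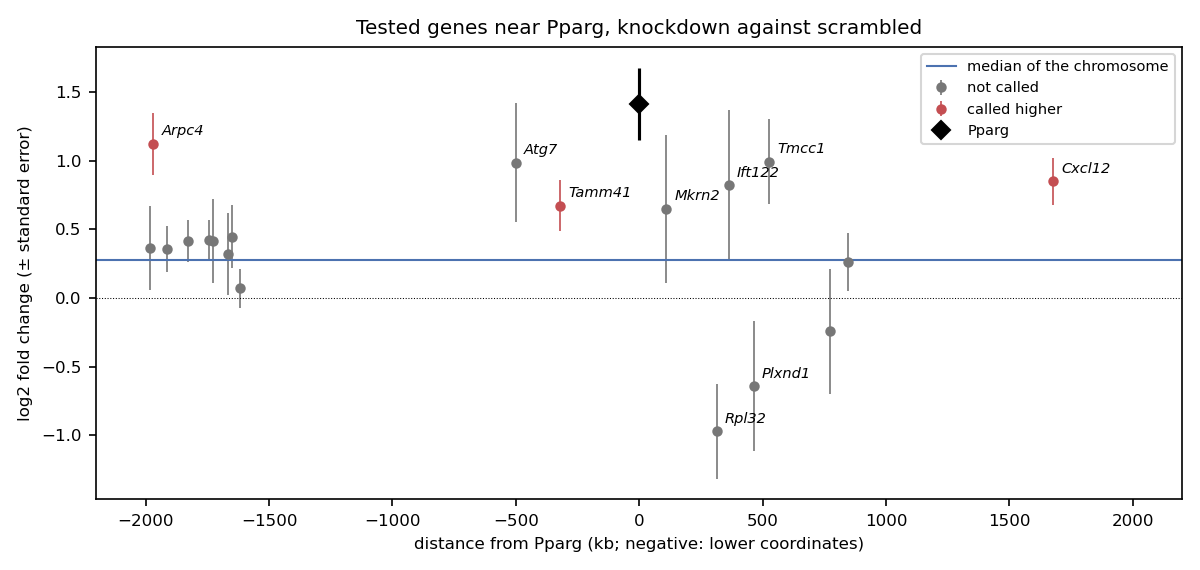
Log2 fold changes with standard errors of 19 tested genes within 2 Mb of *Pparg* against their distance from it in kb, with *Pparg* as a black diamond at 0 and the median of chromosome 6 (0.28) as a blue line; red points were called higher. Most neighbours lie above 0 and *Pparg*, at 1.42, lies above all of them.

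The tested genes whose counts ran most like those of *Pparg* over the 4 libraries were found by the Euclidean distance between centred log2 normalized counts. They were *Cd24a* (distance 0.122, 6 and 8 reads against 20 and 13), *Tspan17* (0.189, 25 and 38 against 74 and 56) and *Junos* (0.193, 10 and 13 against 29 and 22), where the median distance over all tested genes was 1.48. For *Nr4a2* they were *2810403D21Rik* (0.179, 2 and 6 reads against 10 and 9), *Nadsyn1* (0.192, 3 and 7 against 15 and 13) and *Cgnl1* (0.199, 2 and 5 against 11 and 10), with a median distance of 1.87. With 4 libraries and so few reads, many genes can run alike, and the likeness is given as a description.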

How the data were processed

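Per the labels, direct RNA (SQK-RNA002) of 2 scrambled and 2 *Hnrnpl* knockdown C2C12 cultures was sequenced. The authors used guppy for basecalling, minimap2 2.17 for mapping to GRCm39 and HTSeq 0.9.1 for counting, and deposited whole read counts per gene. The annotation release and strand setting of the counting are not given in the sources used here. Of 56748 gene IDs, 56017 were matched to GENCODE vM39 for symbols, positions and exon lengths.

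Counts were compared in edgeR 4.0.16 (R 4.3.3) with TMM, filterByExpr, the quasi-likelihood test and Benjamini-Hochberg adjustment over 8670 genes. Calls needed an adjusted p below 0.05, a log2 fold change beyond 0.5 in either direction and normalized counts averaging more than 10. The 4 configurations of the authors in DESeq2 (1.42.0 here) and the choices of scaling, filter, block and left-out library were alternatives. An exact permutation test of 2 against 2 libraries cannot give a p under 0.333. Within groups, library pairs had a chi-square per gene of 2.74 (scrambled) and 3.09 (knockdown), against 1 for counting error. Libraries were paired by the replicate number in the labels, and deviations of same-numbered libraries had a correlation of -0.014 over 7705 genes.

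The members and lists were chosen with earlier results of these data known. Named genes are the members, their relatives, called genes and the extreme genes of lists without calls in a direction, 3 genes with the most similar counts, 2 reported neighbours on each side of *Pparg* and *Nr4a2*, *Hnrnpl* and markers. Other genes named were chosen after their values were seen. Transcript counts, qPCR and fly data were not analysed here, and 1 gene is not reported here.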

Additional observations from a re-analysis of the deposited data

How the results depend on the processing

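The log2 fold changes of *Pparg* and *Cebpb* kept their sign under 16 of 16 alternatives and those of *Nr4a2* and *Cebpa* under 15 of 15. *Rxra* had 14 of 15, with -0.12 and 0.52 as the ends of its range over left-out libraries. *Pparg* was called under 13 of its alternatives, not by the parametric DESeq2 fits or without knockdown 1. *Nr4a2* and *Cebpb* were called under 9 each and in no DESeq2 configuration, and *Cebpa* had an adjusted p under 0.05 in 6 of 15. Over all genes, 202 were called higher and 279 lower. With the chromosome medians removed these counts were 106 and 179, under Wald tests of DESeq2 80 and 148 (local) and 44 and 71 (parametric), and under its likelihood-ratio test 75 and 147 (local) and 42 and 70 (parametric). With single libraries left out they ranged from 82 to 183 and from 112 to 261. The lowest counts, 82 and 112, came without knockdown 1, and without scrambled 2 the higher count was 131. Of the genes in the lists around the members, 6 were called higher and 6 lower. The higher count was 2 with the chromosome medians removed and 2 in each DESeq2 configuration, and the lower count was 2 in both parametric DESeq2 fits. With single libraries left out the list counts ranged from 3 to 8 higher and from 4 to 5 lower, and the lowest higher count, 3, came without scrambled 2 or knockdown 1. With the replicate block, which pairs the libraries by replicate number, 204 genes were called higher and 280 lower, and 7 and 6 of the lists. *Pparg* (1.41), *Nr4a2* (1.59) and *Cebpb* (0.97) were all still called with it. The causes of these differences were not tested. Counts of at most 40 reads per scrambled library limit the precision for every member.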
